A study of Zea mays with 322 samples.

Results

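MIR166j and MIR166k are 2 of the 64 MIRNA loci that were quantified by small RNA sequencing in 322 libraries of maize leaves. They were chosen by name, as the rows Cluster_265172 (MIR166j) and Cluster_165899 (MIR166k) of the deposited tables, because both give rise to one and the same mature miRNA. The study varied the number of copies of part of the genome and asked how miRNA levels respond, either at loci inside the varied segment (cis) or elsewhere (trans). MIR166k lies on the long arm of chromosome 4, in the segment varied by the TB-4Lb translocation, and MIR166j lies on the long arm of chromosome 7, in the segment varied by TB-7Lb. The dosage of each locus was therefore changed in its own line while that of the other was left as it was.

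All libraries come from leaves of 45-day-old plants. Translocations between a normal (A) chromosome arm and the supernumerary B chromosome, which often fails to separate in pollen, gave W22 plants with 1 (monosomy), 3 (trisomy) or 4 (tetrasomy) copies of the distal part of an arm, and these were compared with diploids that carry 2 copies. In haploid plants, the same kind of cross gave 2 copies of a segment (disomy), and these were compared with haploid controls with 1 copy. By the paper, some aneuploid plants also carry B chromosome material, up to a full B or beyond, and their controls carry none. It adds that the varied segments may come from different backgrounds. A comparison with the control can thus differ in more than the dosage of the segment. Dp4 plants carry 3 or 4 copies of an interstitial region of chromosome 4. The ploidy series held haploids, triploids and tetraploids, each with diploids of its own (the triploids and their diploids had a Mo17 background), and 1 further comparison set W22 plants with 1 B chromosome against plants without one. Together these are 81 groups, mostly of 4 plants, and 55 comparisons, each of 1 experimental group with the control given for it. Several arms share a control, so that the diploids of 1S, 3S and 5L are the same 4 plants. The copy number of a segment was taken from the labels and was not checked from these values, and the 64 loci include no marker that would check the labelled leaf tissue. Nothing in the labels says that plants of a group were grown apart, so that the tests measure the spread between plants as sampled.

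miR166 is a conserved plant miRNA. It guides the cleavage of mRNAs of the class III homeodomain-leucine zipper (HD-ZIP III) transcription factors, which specify the upper (adaxial) side of the leaf and act in vascular tissue and meristems. In maize, mutations in the miR166 site of the HD-ZIP III gene rolled leaf1 make the mRNA resistant and give leaves that curl upwards. The mRNAs of these targets were not measured in the libraries described here.

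The mature sequences are shown because they decide what can be told apart. MIR166j and MIR166k carry an identical sequence of 21 nucleotides, and the 3 other MIR166 loci in the tables, MIR166f, MIR166g and MIR166i, share a second sequence. Each is printed 5′ to 3′ with the seed (bases 2 to 8) in capitals.
MIR166j and MIR166k: uCGGACCAggcuucaaucccu
MIR166f, MIR166g and MIR166i: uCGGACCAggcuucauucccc
Counted from the 5′ end, the second sequence differs from the first by A16U and U21C. The seed is the same in all 5 loci. A predicted target site in Zm00001d008869, annotated as a class III HD-Zip gene of the HB8 type, shows where the difference falls. The site reads as follows, 5′ to 3′, with the bases in capitals that form Watson-Crick pairs with MIR166j and MIR166k.
Zm00001d008869: ccGGgaUGAAGCCUGGUCCGg
Of its 21 bases, 16 pair with MIR166j and MIR166k and 17 with the other 3 loci, and the pair at position 16 makes the difference. In the W22 genome, MIR166k spans 105 bp (chr4:187156668-187156772) and MIR166j spans 199 bp (chr7:127887241-127887439).

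MIR166k gave more reads than MIR166j in every library, and the proportion between them stayed close to what counting error allows. In the 318 libraries used, MIR166k ranged from 53.7 to 575 RPM (reads of a locus scaled to a fixed total of mapped reads) with a median of 211, and MIR166j from 5.22 to 53.4 RPM with a median of 19.1. In raw reads these are 72 to 2238 for MIR166k (median 379.5) and 6 to 208 for MIR166j (median 32), so that a single value of MIR166j rests on few reads. MIR166k exceeded MIR166j in all 318 libraries, by 11.3 times in the median library. By mean RPM, MIR166k ranked 5 and MIR166j ranked 14 among the 64 loci, yet together they held a median of 0.524% of the reads of the 5 MIR166 loci, most of which belong to MIR166f (median 32828 RPM) and MIR166g (median 12184 RPM).

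The share of MIR166j in the reads of both loci was 8.22% over all libraries together. Within single libraries it had a median of 8.14% and ran from 3.69% to 14.4%, and group by group it ran from 6.50% to 10.2%. The variance of the split between libraries was 1.08 times that expected from counting reads alone (chi-square per degree of freedom, where 1 would be counting error only), and within groups it was 1.19 times. The standard deviation of log2(MIR166k/MIR166j) over libraries was 0.30, and the counting error of that value in the median library was 0.26. Both rows thus held one level in a nearly constant proportion, and their values are not separate evidence. How the mapping divides reads of the shared sequence between the loci was not tested.

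**Figure D1:**
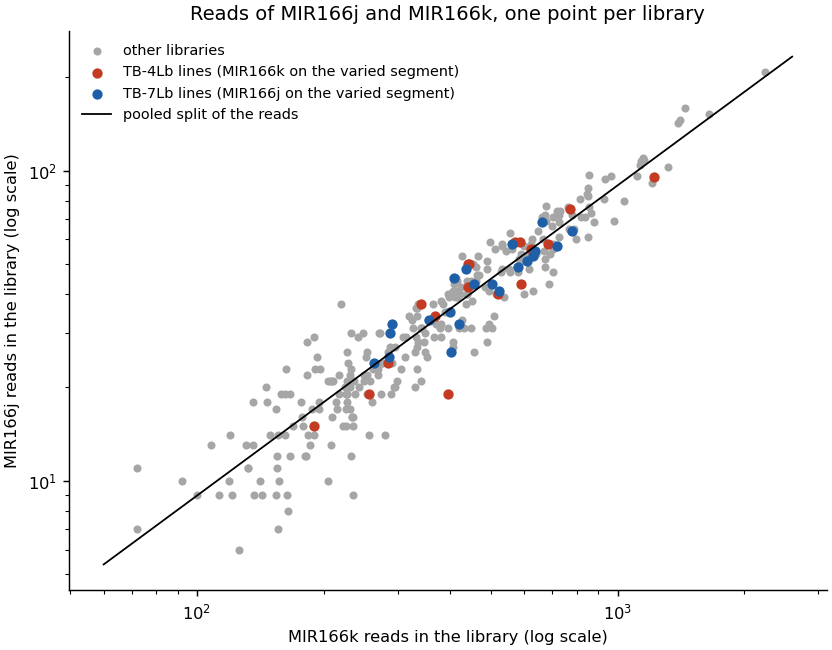
Reads of MIR166k (horizontal, log scale) and MIR166j (vertical, log scale), with one point for each of the 318 libraries, and a line for the pooled split in which MIR166j holds 8.22% of the reads of both loci. Libraries of the TB-4Lb lines (red) and TB-7Lb lines (blue) lie along the same line as all others.

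The split was compared between a group and its control in 55 comparisons. The difference in mean log2((MIR166k + 0.5)/(MIR166j + 0.5)) ranged from −0.25 to 0.61 with a median of 0.04, and 0 comparisons reached an unadjusted p of 0.05 in exact two-sided permutation tests, for which 4 plants against 4 allow a smallest p of 0.0286. With so few plants per group, none of these tests could have passed after adjustment on its own, so the adjusted values are not used.

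The level itself formed a gradient over the groups. The coefficient of variation within a group had a median of 15.7% for MIR166k and 21.9% for MIR166j. Group means of MIR166k ran from 123 ± 30.6 RPM (SD, n = 4) in the 5L disomy to 469 ± 78.2 RPM (n = 4) in the 1S trisomy. MIR166j ran from 9.24 ± 3.90 RPM (n = 4) in the haploid controls of 5S to 40.7 ± 9.14 RPM (n = 4) in the 7S disomy. When the 81 groups were placed in order of their means, 1 of the 80 neighbouring pairs for MIR166k, and 0 for MIR166j, differed by more than the larger of their 2 standard deviations. That pair was the diploids used for 1S, 3S and 5L above the 3L monosomy, and all other neighbours lay within their spread.

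Control groups covered most of that gradient. Among 18 groups of diploid controls, the mean of MIR166k ran from 139.8 RPM (9S) to 339 RPM (the diploids that 1S, 3S and 5L have in common), a range of 2.42-fold, and that of MIR166j from 12.5 RPM (1L) to 31.5 RPM (the same plants). Among 8 groups of haploid controls, MIR166k ran from 127 RPM (5S) to 294 RPM (1S). Of the 38 experimental groups in a diploid or polyploid series, 31 had a MIR166k mean inside the range of the diploid controls, 5 lay above it and 2 below it. Of the 17 disomies, 12 lay inside the range of the haploid controls.

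The lines in which 1 of the loci changes in copy number were first compared group by group, and in none of these comparisons was that locus called. The slope of MIR166j over the copies of 7L, given further on, was called. If a level followed the number of copies alone, the log2 fold change would be −1 in a monosomy, 0.58 in a trisomy and 1 in a disomy. These values hold for a row only if its reads come from that locus. How mapping divides the reads of the shared sequence was not tested. Neither the rows nor their split can therefore show how a single locus responded to its own copies. A log2 fold change here comes from edgeR and is relative to the TMM scale, which adjusts each library to the bulk of the loci, and a locus was called at an adjusted p (FDR) under 0.05.

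In the 4L series, MIR166k stood at 254, 253, 263 and 376 RPM in the 4 monosomic plants, which carry 1 copy of the locus. The diploids had 193, 213, 243 and 305 RPM, where the first and second of these plants (4Lb37 and 4Lb24) did not differ beyond sampling noise in a chi-square test (p = 0.227) and were counted as 1 sample. The trisomic plants had 177, 243.5, 260.1 and 335 RPM. The 3 groups overlapped. The log2 fold change was 0.16 ± 0.32 (SE) in the monosomy (FDR = 0.869), with −0.49 to 0.81 within 2 SE, and −0.02 ± 0.24 in the trisomy (FDR = 0.961), with −0.50 to 0.46 within 2 SE. Neither interval includes the value that the number of copies would give, but the value for the trisomy depended on the fit. It was 0.22 when all dosages of the line were fitted together and 0.47 without the diploid 4Lb25, a library with 1.90% of its mapped reads on the 64 loci where the other 4L diploids had 4.36% to 5.21%. Of the loci tested, 4.55% were called in the 4L monosomy and 0% in the trisomy.

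MIR166j, whose dosage is unchanged in the 4L lines, had 29.3, 22.8, 24.6 and 19.2 RPM in the monosomic plants and 19.7, 34.6, 24.5 and 20.99 RPM in the diploids. The trisomic plants had 28.4, 14.96, 24.8 and 18.8 RPM. Its groups also overlapped, with log2 fold changes of −0.15 ± 0.32 and −0.30 ± 0.28 (FDR = 0.869 and 0.660). The split between the loci was 3.56 ± 0.19 (log2, SD, n = 4) in monosomies, 3.25 ± 0.10 (n = 3) in diploids and 3.54 ± 0.12 (n = 4) in trisomies. MIR166k thus held the larger share in both aneuploid groups, whether it had fewer or more copies, but neither difference reached 0.05 (exact permutation test, p = 0.0571 each, smallest possible p = 0.0286, adjusted p = 0.873). Over the 3 dosages, the split changed by −0.01 on the log2 scale per copy (exact permutation test over 11 samples, p = 0.860).

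In the haploid background, the 5 plants with 2 copies of 4L had a median MIR166k level of 205 RPM (157.8 to 303 RPM) and the 3 haploid controls had 129, 227 and 294 RPM. Neither MIR166k (log2 fold change 0.37 ± 0.35, FDR = 0.719) nor MIR166j (−0.03 ± 0.43, FDR = 0.971) was called, against 18.8% of all loci tested. The interval of MIR166k within 2 SE, −0.34 to 1.07, includes both no change and the value for 2 copies. Here the scale decided the direction for MIR166k, whose ratio of mean RPM was 0.960 and whose log2 fold change with library sizes set to the mapped reads was −0.06. Fewer cells that express a miRNA and less of it per cell cannot be told apart in such samples of whole leaf.

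In the 7L series, both loci stood higher in the trisomic plants than in the diploids, while monosomic plants overlapped with the diploids. MIR166j, which lies on 7L, stood at 26.96, 16.9, 16.1 and 17.3 RPM in monosomic plants, at 19.6, 18.8, 24.96 and 19.9 RPM in diploids and at 25.5, 26.7, 26.9 and 26.8 RPM in trisomic plants. The trisomic plants lay above all diploids, and 1 monosomic plant, 7Lb19, stood as high as these. The fitted log2 fold change was −0.31 ± 0.21 in the monosomy (FDR = 0.283), with −0.72 to 0.11 within 2 SE, and 0.29 ± 0.19 in the trisomy (FDR = 0.485), with −0.08 to 0.66 within 2 SE. The interval of the trisomy includes the value that the copies would give and that of the monosomy does not.

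MIR166k, which is not on 7L, stood at 261, 214.5, 211 and 198 RPM in monosomic plants, at 207.5, 224, 242 and 236 RPM in diploids and at 321, 243, 327.5 and 309.9 RPM in trisomic plants. The trisomic plants again lay above all diploids. Its log2 fold changes were −0.24 ± 0.14 in the monosomy and 0.35 ± 0.14 in the trisomy (FDR = 0.200 and 0.165). With library sizes set to the mapped reads, the monosomy gave −0.04 for MIR166k and −0.11 for MIR166j. The trisomy gave 0.40 and 0.35 on that scale, and none of these was called. On the TMM scale and without the trisomic plant 7Lb15, MIR166k was called in the trisomy (0.46, FDR = 0.00655). Of all loci tested, 27.7% were called in the 7L monosomy and 4.44% in the trisomy, and in the monosomy the calls included MIR166f (−0.32 ± 0.08), MIR166g (−0.31 ± 0.09) and MIR166i (−0.34 ± 0.13), all lower.

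A fit of the level on the number of copies, which uses all 12 plants of the 7L series at once, gave a slope of 0.34 ± 0.10 per copy on the log2 scale for MIR166j (FDR = 0.0131) and 0.33 ± 0.07 for MIR166k (FDR = 0.000261). The locus inside the varied segment and the locus outside it therefore had slopes that differed by less than their errors. In that fit 9 of 46 loci were called. Without the monosomic plant 7Lb24 neither slope was called (0.21 and 0.23, FDR = 0.258 and 0.0833), and without the diploid 7Lb2 or 7Lb5 that of MIR166j was not (FDR = 0.109 and 0.0978). The split between the loci was 3.53 ± 0.19 in monosomies, 3.44 ± 0.14 in diploids and 3.48 ± 0.21 in trisomies (log2, SD, n = 4 each), a change of −0.02 per copy (exact permutation test over 12 samples, p = 0.737). In the haploid background, plants with 2 copies of 7L had 252, 215, 377 and 303 RPM of MIR166k against a median of 203 RPM (189 to 265 RPM) in 5 haploid controls. MIR166j had a log2 fold change of 0.17 ± 0.29 (FDR = 0.722) and MIR166k of 0.30 ± 0.22 (FDR = 0.429), where 22.9% of loci were called.

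**Figure D2:**
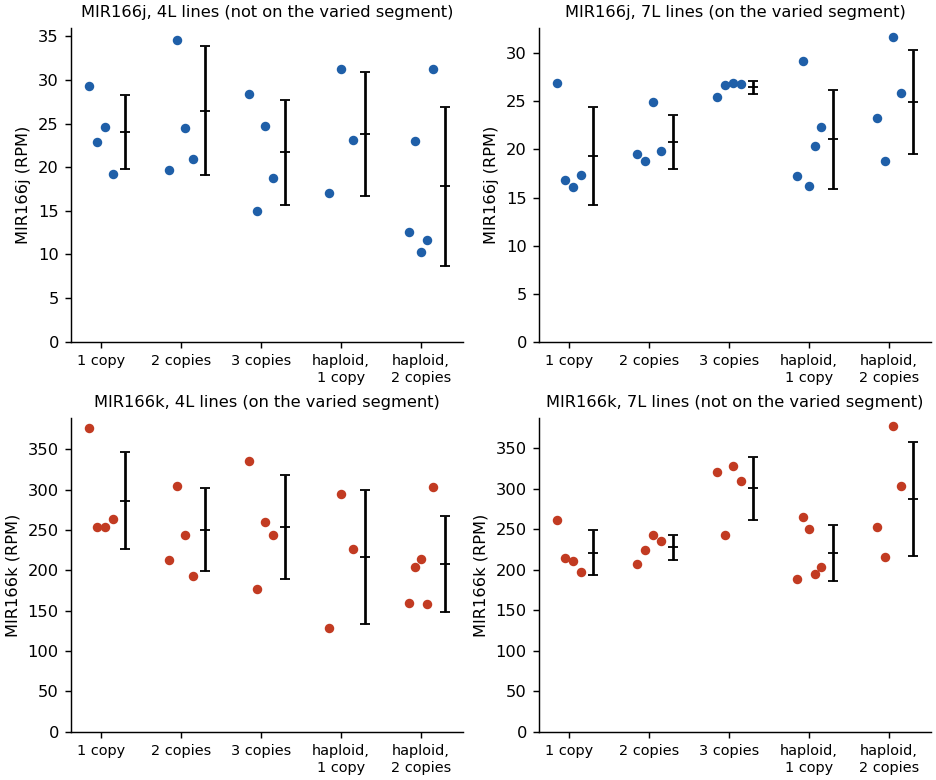
Levels of MIR166j (upper panels) and MIR166k (lower panels) in RPM for each plant of the 4L lines (left) and 7L lines (right), by the number of copies of the segment, with the mean and SD of each group beside its points. The 4 trisomic 7L plants lie above all 4 diploids for both loci, and all groups of the 4L lines overlap.

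Over all 55 comparisons, MIR166k was called in 9 (6 higher and 3 lower) and MIR166j in 3 (2 higher and 1 lower), and each call of MIR166j was also a call of MIR166k in the same direction. For all loci together, 10.8% of 2427 tests gave a call, 5.48% higher and 5.32% lower. At an unadjusted p under 0.05 there were 14 comparisons for MIR166k and 8 for MIR166j. The median log2 fold change was 0.09 for MIR166k and −0.04 for MIR166j, beside −0.00 over all tests. The fold changes of both loci had the same sign in 47 of the 55 comparisons and differed by a median of 0.10, while the median standard error was 0.21 for MIR166k and 0.29 for MIR166j.

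Of the 9 comparisons with a call, 4 were monosomies, 3 trisomies, 1 a tetrasomy and 1 a disomy. The background of calls over all loci was 14.1% in monosomies, 4.93% in trisomies, 6.06% in tetrasomies, 16.4% in disomies and 0.602% in the ploidy and B chromosome comparisons together. None of the 9 was in a 4L or 7L line, so that in each of them the loci themselves lay outside the varied segment.

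**Figure D3:**
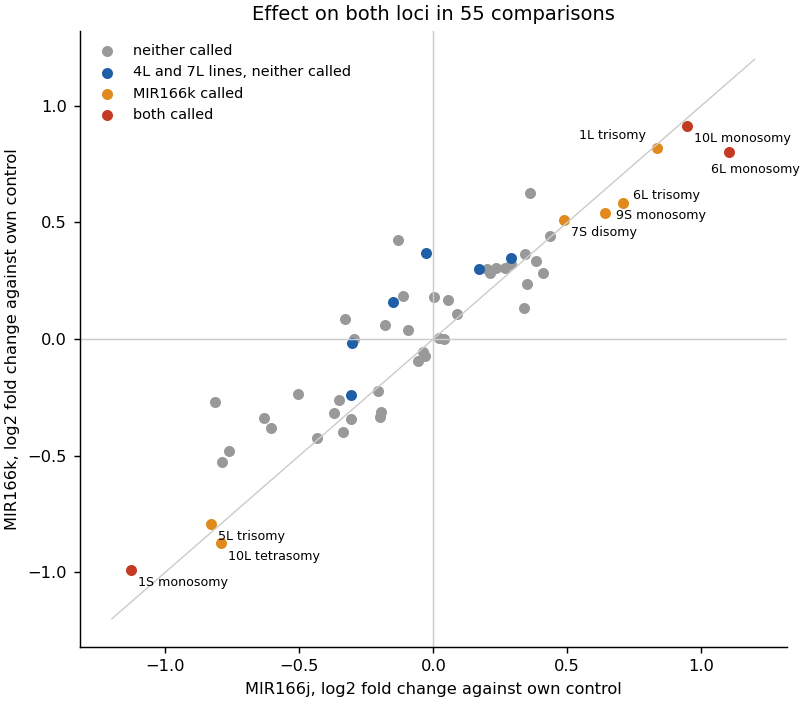
Log2 fold change of MIR166j (horizontal) and MIR166k (vertical) against the own control in each of the 55 comparisons, with the diagonal of equal change. The comparisons follow the diagonal, the 3 in which both loci were called lie at its ends, and those of the 4L and 7L lines (blue) lie near its middle.

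Among the monosomies, both loci were lower in the 1S monosomy and higher in the 6L and 10L monosomies. In the 1S monosomy, MIR166k stood at 192, 172, 221 and 160.0 RPM against 332, 369, 316 and 338.5 RPM in the diploids, and MIR166j at 13.3, 14.4, 15.3 and 20.7 RPM against 29.5, 35.02, 31.97 and 29.4 RPM. The groups did not overlap at either locus. On the log2 scale the fitted change was −0.99 ± 0.17 for MIR166k (FDR = 0.000382) and −1.13 ± 0.29 for MIR166j (FDR = 0.00543), where 44.7% of the loci tested were called. Without the monosomic plant 1Sb14 neither call held (−0.63 and −0.75, FDR = 0.117 and 0.131), nor without 1Sb18 (−0.53 and −0.88, FDR = 0.0768 each), and without 1Sb17 that of MIR166j was lost (−0.66, FDR = 0.1002).

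In the 6L monosomy, MIR166k stood at 319.6, 327, 378 and 404 RPM against 179.5, 211, 226 and 157.5 RPM in the diploids. MIR166j had 32.5, 29.7, 44.8 and 38.7 RPM against 12.98, 16.1, 20.5 and 15.1 RPM. Every monosomic plant lay above every diploid. The log2 fold change was 0.80 ± 0.16 for MIR166k (FDR = 0.000279) and 1.10 ± 0.28 for MIR166j (FDR = 0.00274), where 35.7% of loci were called, and both calls held without any single plant.

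In the 10L monosomy, MIR166k stood at 378, 365, 413 and 421 RPM against 182, 218.5, 243 and 205 RPM, and MIR166j at 26.7, 36.2, 39.6 and 41.97 RPM against 23.5, 18.2, 16.1 and 17.7 RPM. Again the groups did not overlap. The fitted log2 fold change was 0.91 ± 0.17 (FDR = 0.000322) and 0.95 ± 0.25 (FDR = 0.00805), where 25.6% of loci were called. Without the monosomic plant 10L106 neither call held (0.73 and 0.74, FDR = 0.0525 and 0.0940), and MIR166j was also not called without 10L102 (FDR = 0.0620) or 10L103 (FDR = 0.0560). Both calls were also lost when all dosages of the line were fitted together (0.78 and 0.82, FDR = 0.0525 and 0.105).

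In the 9S monosomy MIR166k was called at 0.54 ± 0.16 (FDR = 0.00827), where 15.6% of loci were called. Its plants had 237, 191, 209 and 183 RPM and the diploids 134, 130.5, 155 and 139 RPM, without overlap. MIR166j moved by 0.64 ± 0.26 and was not called (FDR = 0.0727), but it was called when all dosages of the line were fitted together (0.68, FDR = 0.0286). Without the diploid 9Sd4 the change of MIR166k was 0.40 and was not called (FDR = 0.124).

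Among the trisomies, MIR166k was higher in 1L and 6L and lower in 5L, and MIR166j was not called in any. In the 1L trisomy, MIR166k stood at 289, 248 and 260.4 RPM against 120.2, 168.7 and 175 RPM in diploids, without overlap, with a log2 fold change of 0.82 ± 0.23 (FDR = 0.0210). MIR166j had 25.3, 17.1 and 25.5 RPM against 14.7, 14.8 and 7.86 RPM, and a log2 fold change of 0.84 ± 0.47 (FDR = 0.317). With 3 plants on each side, the call of MIR166k was lost without 1La14 (0.39, FDR = 0.270), 1La16 (0.75, FDR = 0.101), 1La41 (0.55, FDR = 0.353) or 1La45 (0.84, FDR = 0.0763). It was also lost when the 2 plants that the study left out were put back (0.54, FDR = 0.107) and in the joint fit of all dosages (0.82, FDR = 0.167).

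In the 5L trisomy, MIR166k stood at 182.5, 177, 176 and 167 RPM, below all 4 of the diploids that also served 1S. On the log2 scale the fitted change was −0.79 ± 0.17 for MIR166k (FDR = 0.00314) and −0.83 ± 0.30 for MIR166j (FDR = 0.0745), where MIR166j had 19.4, 14.1, 14.5 and 15.2 RPM and was called in the joint fit of all dosages (FDR = 0.0285). The call of MIR166k held without any single plant. Of the loci tested, 11.6% were called in the 1L trisomy and 11.6% in the 5L trisomy.

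In the 6L trisomy, MIR166k stood at 259.8, 275, 228.5 and 165 RPM, which overlap with the 157.5 to 226 RPM of the diploids. The call (0.58 ± 0.15, FDR = 0.00265, with 11.4% of loci called) came with a shift of scale. With mapped reads in place of TMM as library size the log2 fold change was 0.26 (FDR = 0.461), and the 64 loci held 4.16% of the mapped reads in trisomies and 5.16% in diploids. MIR166j was not called (0.71 ± 0.28, FDR = 0.0908).

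The 10L tetrasomy had 171, 157.8, 114 and 97.9 RPM of MIR166k, all below the 182 to 243 RPM of the 10L diploids. The log2 fold change was −0.88 ± 0.18 (FDR = 0.0211, with 9.52% of loci called), and for MIR166j it was −0.79 ± 0.37 (FDR = 0.253). With 4 copies of 10L the level was thus lower than in diploids and with 1 copy it was higher, while the trisomic plants overlapped with the diploids (256 ± 99.1 against 212 ± 25.8 RPM, SD, n = 4). The call in the tetrasomy was lost without the diploid 10L1 (−0.67, FDR = 0.0529) or 10L10 (−0.89, FDR = 0.0680), without the tetrasomic plant 10L26 (−0.88, FDR = 0.0649), 10L32 (−0.79, FDR = 0.0939) or 10L34 (−0.80, FDR = 0.112), with library sizes set to the mapped reads (−0.65, FDR = 0.0503), and in the joint fit of all dosages (−0.65, FDR = 0.0898).

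The 7S disomy was the only disomy with a call. MIR166k stood at 375, 575, 341 and 421 RPM in plants with 2 copies of 7S against 239, 327 and 248 RPM in haploids, without overlap. The fitted log2 fold change was 0.51 ± 0.18 (FDR = 0.0241, with 20.0% of loci called). MIR166j had 38.3, 53.4, 31.7 and 39.3 RPM against 21.8, 25.5 and 30.8 RPM and was not called (0.49 ± 0.26, FDR = 0.196). Without the haploid plant Hh58 the change of MIR166k was 0.62 and was not called (FDR = 0.0691).

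**Figure D4:**
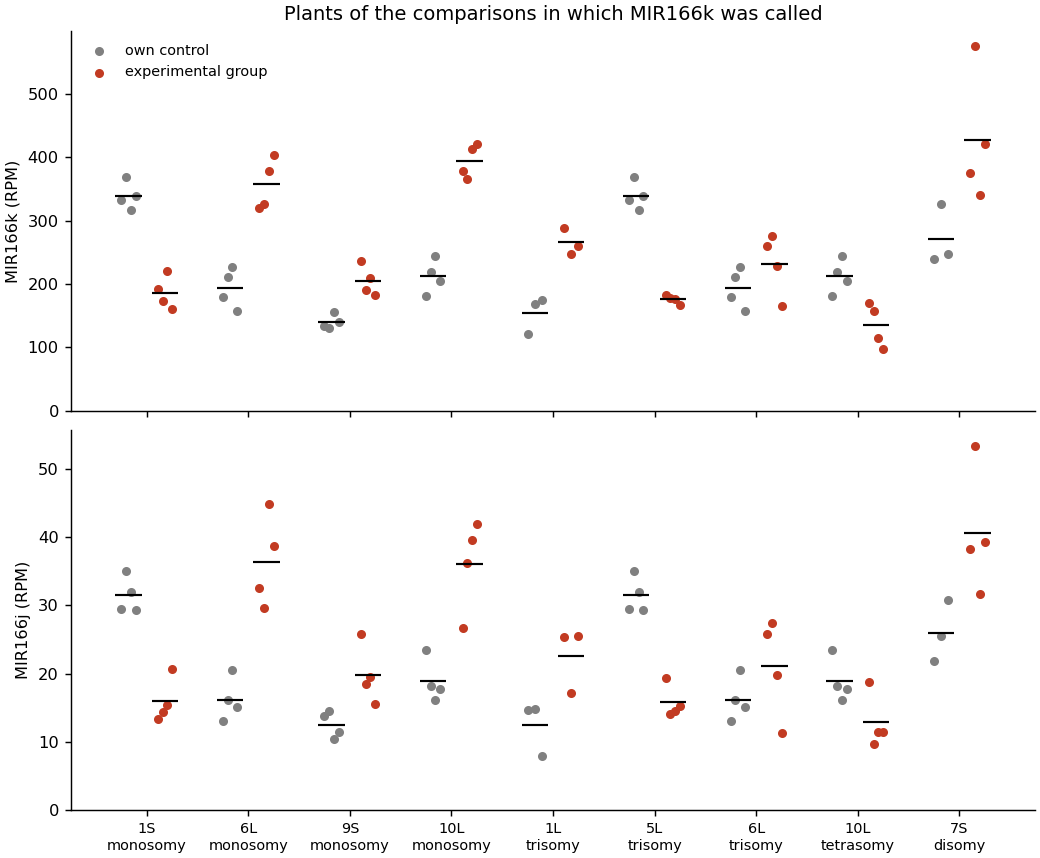
Levels in RPM of MIR166k (upper panel) and MIR166j (lower panel) in each plant of the 9 comparisons in which MIR166k was called, with the own control in grey, the experimental group in red and the mean of each group as a bar. Groups and controls are apart in all but the 6L trisomy for MIR166k, and the diploids of 1S and 5L are the same 4 plants.

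Which diploids served as the control bore on these calls. The 4 diploids shared by 1S, 3S and 5L and the 4 diploids of 6L are listed under one heading, Experiment 4, of the study's sample table. Plants under one heading of that table are called a pool here, and whether they were sequenced together was not checked. Both groups carry no varied segment, and they had MIR166k at 339 ± 21.9 and 193.5 ± 30.9 RPM (SD, n = 4). Compared with each other by the same test, they differed by 1.01 for MIR166k (FDR = 0.000192) and by 1.17 for MIR166j (FDR = 0.00283). The difference was not particular to these loci, since 27 of the 44 loci tested were called between these 2 groups. The 1S monosomy (186 ± 26.5 RPM) stood at the level of the 6L diploids, and the 6L monosomy (357 ± 40.7 RPM) at that of the shared diploids. Over 22 pairs of control groups from one pool, MIR166k was called in 2 and MIR166j in 1. Of all 982 tests in these pairs, 71 (7.23%) gave a call, and 27 of the 71 came from that 1 pair. The median size of the log2 fold change was 0.26 for MIR166k and 0.27 for MIR166j.

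Each of the 9 comparisons was then repeated against every other control group of its pool and ploidy, an alternative chosen after the results had been seen. Of 14 such tests of MIR166k, 1 was called, that of the 1L trisomy against the Dp4 diploids (1.25 ± 0.17, FDR = 0.000120), where MIR166j was called as well (1.17, FDR = 0.0269). In that test 10 of 43 loci were called. Over the 14 tests, loci called ran from 1 of 43 (10L monosomy against 4L diploids) to 23 of 42 (1S monosomy against 6L diploids). The direction changed in 3 tests, namely the 1S monosomy (0.22) and the 5L trisomy (0.16) against the 6L diploids and the 9S monosomy against the 4S diploids (−0.17). The 6L monosomy against the shared diploids gave 0.06 (FDR = 0.802) and the 6L trisomy 0.17 (FDR = 0.361). The 10L monosomy kept its direction at 0.37 and 0.65, the 10L tetrasomy at −0.90 and −0.64, and the 7S disomy at 0.33, and none of these was called. In the 7L trisomy, which was not called against its own diploids, MIR166k was called against those of 8L (0.45, FDR = 0.0433) and of 9S (0.73, FDR = 0.000240). Loci called there were 6 of 46 and 7 of 46.

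**Figure D5:**
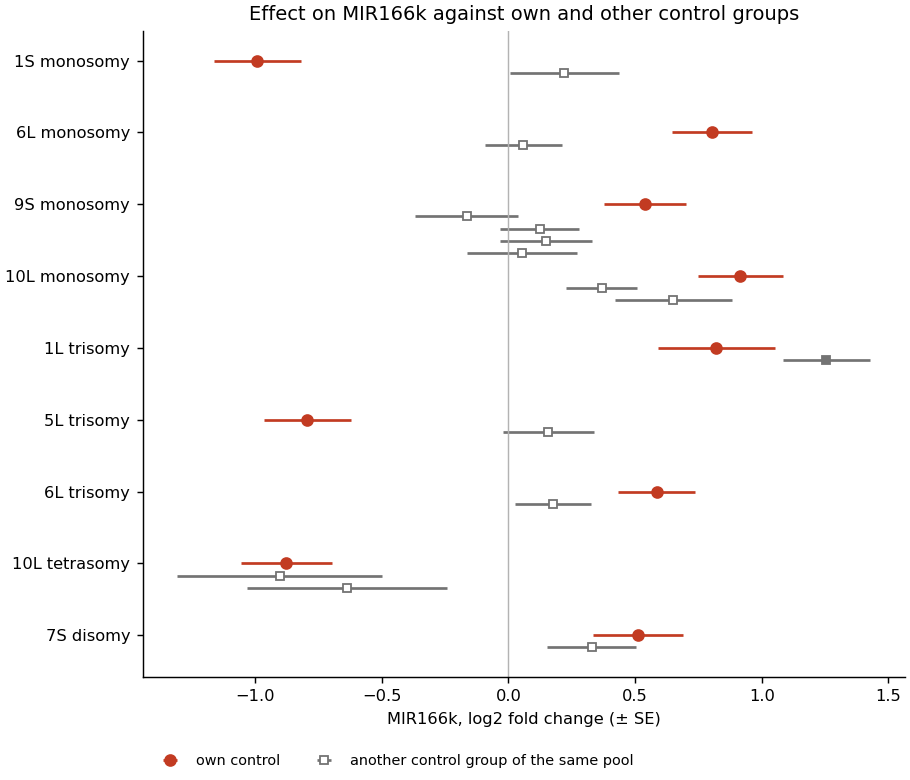
Log2 fold change of MIR166k with its standard error in the 9 comparisons in which it was called, against the own control (red circles) and against every other control group of the same pool and ploidy (squares, filled where called). Only the 1L trisomy has a filled square, and the 1S monosomy, the 5L trisomy and 1 test of the 9S monosomy lie on the other side of 0.

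The remaining groups of the 1S, 3S and 5L series, which share their diploids, gave no call. MIR166k stood at 469 ± 78.2 RPM in the 1S trisomy (log2 fold change 0.18 ± 0.15), at 376 ± 43.4 and 169.6 ± 11.8 RPM in the 3S monosomy and trisomy (0.37 ± 0.12 and −0.43 ± 0.23), and at 289.6 ± 36.3 RPM in the 5L monosomy (0.01 ± 0.11, SD and n = 4 for each level). MIR166j stood at 35.3 ± 12.5, 33.7 ± 6.55, 15.6 ± 2.78 and 27.1 ± 3.94 RPM in these groups. All 4 plants of the 3S trisomy lay below all diploids at both loci, but on the TMM scale neither was called (MIR166k FDR = 0.206, MIR166j FDR = 0.318). With library sizes set to the mapped reads both were called lower, MIR166k by −0.998 (FDR = 3.54e-05) and MIR166j by −1.001 (FDR = 0.00172), and that scale also called MIR166k higher in the 1S trisomy (0.47, FDR = 0.0311). When both loci were replaced by their sum, that scale called 24 of 39 loci in the 3S trisomy and 8 of 42 in the 1S trisomy.

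In the 1L series the monosomy had 144 ± 38.5 RPM of MIR166k against 155 ± 30.1 RPM (log2 fold change −0.00 ± 0.35) and 9.87 ± 2.57 RPM of MIR166j. In the 3L series MIR166k stood at 301 ± 24.9 and 300.4 ± 42.5 RPM in the monosomy and trisomy against 259.6 ± 10.4 RPM in diploids, and MIR166j at 27.1 ± 3.34 and 28.5 ± 7.84 against 23.2 ± 1.36 RPM. In the 4S series the levels of MIR166k were 154.04 ± 70.5 and 247 ± 66.7 against 259 ± 111 RPM, and those of MIR166j 12.2 ± 4.97 and 21.5 ± 3.29 against 22.1 ± 11.6 RPM (SD, n = 4). The 4 plants of the 3L monosomy lay above all diploids for MIR166k, and the other groups overlapped with their diploids. Nothing was called in these groups.

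In the 5S series, with 1, 3 and 4 copies, MIR166k stood at 178 ± 17.2, 133 ± 5.26 and 167.8 ± 14.9 RPM against 146 ± 58.4 RPM in diploids, and MIR166j at 12.8 ± 3.16, 11.7 ± 1.89 and 12.4 ± 3.21 against 15.5 ± 5.99 RPM. In the 6S series the trisomy and tetrasomy had 262 ± 58.5 and 299 ± 109.5 RPM of MIR166k against 292 ± 33.2 RPM, and 23.1 ± 6.98 and 21.8 ± 10.0 RPM of MIR166j against 28.8 ± 5.31 RPM. All of these groups overlapped with their diploids, and nothing was called.

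In the 8L series MIR166k stood at 278 ± 39.4 RPM in the monosomy and 169.9 ± 44.6 RPM in the trisomy against 205 ± 36.02 RPM, and MIR166j at 24.9 ± 3.39 and 14.4 ± 3.58 against 17.4 ± 5.91 RPM. The 9S trisomy had 162 ± 18.7 RPM of MIR166k and 13.6 ± 1.52 RPM of MIR166j. In the 9L series MIR166k stood at 176 ± 26.6 and 210.0 ± 41.1 against 202 ± 68.2 RPM, and MIR166j at 18.3 ± 4.36 and 19.4 ± 4.10 against 18.7 ± 5.67 RPM. The Dp4 trisomy and tetrasomy had 153 ± 33.6 and 184 ± 28.01 RPM of MIR166k against 145 ± 18.8 RPM, and 12.8 ± 0.254 and 16.1 ± 2.98 RPM of MIR166j against 12.9 ± 3.98 RPM, with 2 tetrasomic plants. No member was called in these groups.

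Among the other disomies, the largest levels of MIR166k were in 1S (416 ± 28.9 RPM, n = 6, against 294 ± 4.29 RPM in haploids), 1L (377 ± 75.3 against 189.9 ± 19.2 RPM) and 3L (354 ± 30.98 against 271 ± 48.4 RPM). Plant 1Sbh9 of 1S and plants 3Lah9 and 3Lah10 of 3L were of another pool than their haploid controls. In 1S and 1L every disomic plant lay above every haploid, but the log2 fold changes on the TMM scale were 0.06 ± 0.10 and 0.33 ± 0.19 and were not called. With library sizes set to the mapped reads MIR166k was called in both (0.50, FDR = 0.000703, and 0.99, FDR = 4.28e-05), as was MIR166j in 1L (1.04, FDR = 0.00215). When both loci were replaced by their sum, that scale called 14 of 43 loci in the 1S and 28 of 46 in the 1L disomy. The scale shifted the fold changes of the MIR166 loci by 0.44 in the 1S and by 0.64 in the 1L comparison, the latter the largest shift of all.

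Lower levels of MIR166k were measured in the disomies of 2S (159 ± 14.04 RPM), TB-2Sa_deletion (192 ± 46.2 RPM), 3S (172 ± 22.99 RPM), 4S (202 ± 18.04 RPM), 5L (123 ± 30.6 RPM), 6L (141 ± 24.2 RPM), 8L (151 ± 43.01 RPM) and 10L (156 ± 26.4 RPM), with log2 fold changes of −0.48 to −0.09. On the scale of all mapped reads both loci were called lower in 2S (−0.59 and −0.87, FDR = 0.0106 and 0.0110) and in 10L (−0.50 and −0.79, FDR = 0.0371 and 0.0330). With both replaced by their sum, that scale called 16 of 44 loci in the 2S and 13 of 46 in the 10L disomy. The disomies of 5S, 9S and 9L had 166 ± 15.8, 276 ± 26.7 and 255 ± 90.1 RPM, with log2 fold changes of 0.13, 0.30 and 0.32. MIR166j ran from 11.8 ± 3.21 RPM (5L) to 36.4 ± 4.33 RPM (1S) over these disomies. On the TMM scale the nearest to the threshold were the 9S disomy (MIR166k, FDR = 0.0554) and the 10L disomy (MIR166j, FDR = 0.0692).

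Neither whole-genome dosage nor a B chromosome gave a call. MIR166k stood at 149 ± 40.98 RPM in haploids against 207 ± 40.2 RPM in their diploids (log2 fold change −0.34 ± 0.24, FDR = 0.706), at 357 ± 26.3 RPM in 2 triploids against 295 ± 4.36 RPM (−0.00 ± 0.10, FDR = 0.995), and at 279 ± 136 RPM in tetraploids against 207 ± 29.2 RPM (0.62 ± 0.36, FDR = 0.493). MIR166j stood at 13.5 ± 2.84, 33 ± 2.75 and 20.9 ± 11.98 RPM in haploids, triploids and tetraploids. Both triploids lay above all 3 of their diploids at both loci in RPM, with a shift of scale of 0.27. The difference between the tetraploid and the triploid effect was 0.65 ± 0.53 for MIR166k and 0.35 ± 0.70 for MIR166j (FDR = 1.00 each), and 0% of loci were called in that contrast, with 0 calls also when mapped reads served as library size. Plants with 1 B chromosome had 280.1 ± 125 RPM of MIR166k (n = 3 samples) against 165 ± 38.02 RPM (0.44 ± 0.27, FDR = 0.773) and 24.8 ± 15.02 RPM of MIR166j against 14.2 ± 3.31 RPM.

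A slope over the number of copies was fitted in 16 series, 15 translocation lines and Dp4. MIR166k was called in 4 (2 rising and 2 falling) and MIR166j in 3 (1 rising and 2 falling), where 16% of all loci tested were called. Beside 7L, the slope of MIR166k per copy was 0.37 ± 0.11 in 1S (FDR = 0.00815), −0.49 ± 0.11 in 5L (FDR = 0.0103) and −0.46 ± 0.10 in 10L (FDR = 0.000880), and that of MIR166j was −0.51 ± 0.14 in 5L (FDR = 0.0254) and −0.47 ± 0.11 in 10L (FDR = 0.00197). Loci called in these fits were 21 of 42 in 1S, 7 of 40 in 5L and 8 of 43 in 10L. In 4L, where MIR166k itself varies, the slopes were 0.10 ± 0.10 for MIR166k and 0.11 ± 0.14 for MIR166j (FDR = 0.618 and 0.649). The 1S and 5L series contain the same diploids, and their slopes are not independent. With library sizes set to the mapped reads the slopes of both loci in 5L were no longer called (FDR = 0.0703 and 0.114), nor was that of MIR166j in 7L (FDR = 0.178). Without 1 plant, the slope of MIR166j was not called in 10L when 10L106 was left out (−0.36, FDR = 0.0794), nor in 5L when 5Lb1, 5Lb17, 5Lb26 or 5Lb27 was (FDR of 0.0512 to 0.0875).

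The sum of both loci does not depend on how reads of the shared sequence were divided. It was called in 11 of the 55 comparisons, 7 higher and 4 lower, namely the 9 comparisons in which MIR166k was called together with the 9S disomy (0.31 ± 0.10, FDR = 0.0390) and the 10L disomy (−0.61 ± 0.18, FDR = 0.0104). It was not called in any comparison of the 4L and 7L lines. With library sizes set to the mapped reads, the sum was called in 13 comparisons, and no longer in the 9S disomy (0.12, FDR = 0.675), the 6L trisomy (0.27, FDR = 0.404) or the 10L tetrasomy (−0.64, FDR = 0.0525). The share of all loci called on that scale varied between comparisons, with 28 of 46 in the 1L disomy and 0 of 40 in the 4L trisomy.

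The other MIR166 loci were called in few comparisons, but the scale limits what their fold changes can show. Over the same 55 comparisons MIR166f was called in 3 (1 higher and 2 lower), MIR166g in 2 and MIR166i in 2 (all lower). Their log2 fold changes stayed between −0.59 and 0.41, where those of MIR166j ran from −1.13 to 1.10. MIR166f and MIR166g hold most reads of the 64 loci, and library sizes and TMM factors come from these loci. How far this held their fold changes near 0 was not tested, and the narrow range does not show that they were unchanged. In the 7L monosomy MIR166f, MIR166g and MIR166i were called lower, where MIR166j and MIR166k were also lower but not called. Over the means of the 81 groups on the log2(RPM + 1) scale, the locus most like MIR166j was MIR166k (Pearson r = 0.97), followed by MIR171e (0.55) and MIR171n (0.53). For MIR166k the order was MIR166j (0.97), MIR171n (0.57) and MIR171e (0.56). The correlations with MIR166f, MIR166g and MIR166i were −0.03 to 0.10. These are descriptions over groups that share controls, pools and the denominator of RPM.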

How the data were processed

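Small RNAs were extracted with a mirVana kit and libraries were made with a TruSeq small RNA kit. Per the submitters' processing notes and the methods, the authors trimmed adaptors with cutadapt 1.16, removed low-quality reads and structural RNAs (Rfam 14.0), and aligned reads of 18 to 30 nucleotides to W22 with ShortStack 3.8.3. The authors deposited raw read counts per locus and the same counts scaled to mapped reads (RPM). The ratio of both gave the mapped reads of each library, 670906 to 3892832 in the 318 used, with 20129 to 246556 counts on the 64 loci. Reads carry no molecular identifiers, so the counting error of the split covers the sampling of reads only, whereas standard errors from the fits include the spread between plants. Names, coordinates and mature sequences are those of the study's list of loci, which gives the locus on chromosome 4 as MIR166k, although the study's text also calls it MIR166c.

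The 3 libraries that the study left out and plant 4Dp21C6, whose dosage is given differently by its label and by the study's sample table, were left out. In 6 pairs of plants (4Lb24 and 4Lb37, EB37 and EB40, 5SCS5 and 5SCS11, 6SA22 and 6SA24, 5SCS24 and 5SCS25, 9Sd23 and 9Sd24) a chi-square test over loci with at least 10 counts found no difference beyond sampling noise (p of 0.0631 to 0.227), so the plants of a pair were summed to 1 sample.

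Each group was compared with its own control with the quasi-likelihood test of edgeR 4.0.16 (R 4.3.3), using TMM factors and loci whose mean RPM was 0.5 or more (Benjamini-Hochberg within the comparison, FDR threshold 0.05). Slopes used the number of copies as a number. The split between the loci was tested by exact two-sided permutation with a pseudocount of 0.5 (Python 3.11.15, scipy 1.17.1). The group comparison was also run on counts simulated from the 4L monosomy and its diploids alone. That run does not cover the slopes, the split or the other groups. Comparisons described plant by plant are those of the 4L and 7L lines and those in which a member was called. The members, gene lists and tests were chosen with earlier results of these data known. DESeq2 1.42.0, library sizes from all mapped reads, other filters and the return or omission of plants were alternatives.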

Additional observations from a re-analysis of the deposited data

Results flagged for a closer look

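Single plants stood apart from the rest of their group in 11 of 128 sets of a group and a locus, by the gap to the nearest plant relative to the range of the group (Dixon's 95% limit, which chance passes in about 1 in 20 groups). For MIR166j the plant was highest in the 3L diploids (25.2 RPM), the 7L monosomy (26.96 RPM) and the 9L trisomy (25.5 RPM), and lowest in the 3L trisomy (16.8 RPM) and the 7L trisomy (25.5 RPM). For MIR166k it was highest in the 4L monosomy (376 RPM), the 5L monosomy (344 RPM), the 5S disomy (189 RPM) and the 8L monosomy (337 RPM), and lowest in the 5S tetrasomy (146 RPM) and the 9L monosomy (137 RPM).

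Effects on the same locus differed between arms when the difference was fitted itself, among the comparisons in which MIR166k was called and after their calls were known. The 1S monosomy differed from the 6L monosomy by −1.71 for MIR166k and −2.13 for MIR166j on the log2 scale, from the 9S monosomy by −1.43 and −1.65, and from the 10L monosomy by −1.93 and −2.10. The 1L trisomy differed from the 5L trisomy by 1.54 and 1.67, and the 5L from the 6L trisomy by −1.66 and −1.79. These 10 of the 18 differences fitted lie between calls of opposite direction, and their adjusted p was at most 0.00385 (edgeR). In these fits 9 of 44 to 17 of 42 loci were called. Such pairs already differed by their calls, so the adjusted p is no separate evidence. The other 8 differences, between the 6L, 9S and 10L monosomies and between the 1L and 6L trisomies, had adjusted p of 0.227 to 0.962, with 1 of 44 to 6 of 45 loci called. The diploids of 1S and 5L are the same plants and had the highest MIR166k level of all diploid controls.

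Plant 4Dp21C6, which was left out because its dosage is given in different ways, had 19.6 RPM of MIR166j and 234 RPM of MIR166k, above the highest Dp4 diploid (18.7 and 163 RPM).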

How the results depend on the processing

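With all mapped reads as library size, MIR166k was called in 13 comparisons, 7 of them among the 9 of the TMM scale (8 higher and 5 lower), and MIR166j in 8 (3 higher and 5 lower), against 3. The share of all loci called on that scale varied between comparisons, as given above. The slope over copies was then called in 7 lines for MIR166k and 5 for MIR166j. Loci called in these slope fits ran from 0 of 40 in 6S to 18 of 42 in 1S. That scale turned the 4L slopes to −0.087 and −0.070 (MIR166k and MIR166j), the difference between tetraploid and triploid effects on MIR166j to −0.13, and MIR166k in the 4L trisomy to 0.022 and in the 4L disomy to −0.060. With a minimum mean RPM of 1, 7 and 5 comparisons were called (3 higher and 4 lower, 2 higher and 3 lower), and DESeq2 called 13 and 3. MIR166k in the 4L trisomy, near 0, turned to 0.11 without a filter, 0.0079 with that minimum, 0.23 in DESeq2, 0.19 with alike plants kept separate and 0.22 with all dosages in one fit, which gave −0.081 in the 4L monosomy. That joint fit called MIR166k in 6 comparisons, all among the 9, and MIR166j in 4, of which 2 were among the 3. The cause was not tested. For the other filters, DESeq2 and the joint fit, the share of all loci called is not given here. The counts of calls under those settings therefore have no background to be read against. Against other controls, chosen after seeing the data, both loci turned in the 1S monosomy (MIR166k 0.22, MIR166j 0.23), the 7L monosomy against 9S diploids (0.40 and 0.36), the 5L trisomy (0.16 and 0.26) and the 4L trisomy against 10L diploids (0.43 and 0.39). MIR166k turned in the 9S monosomy (−0.17) and against 3L diploids in the 4L monosomy (−0.056), and MIR166j in the 4L monosomy against 10L diploids (0.094), the 4L disomy (0.068) and the 7L disomy (−0.032).

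Without 1 plant, the slope of the split ranged from −0.049 to 0.032 per copy of 4L and from −0.059 to 0.024 per copy of 7L. MIR166k ranged from −0.019 to 0.28 in the 4L monosomy and from −0.14 to 0.47 in the 4L trisomy, and MIR166j from −0.46 to 0.24 in the 4L trisomy and from −0.23 to 0.067 in the 4L disomy. Plants of both groups share 3 numbers in the haploid comparison and 2 in the 3S monosomy, at most 1 elsewhere, and the labels do not say that a number marks a shared origin. Deviations of same-numbered plants correlated at −0.092, 0.30 and −0.0034 (haploid) and −0.039 and −0.085 (3S), and 1 of the 3 haploid plants correlated best with its own number, so the numbers were not taken to pair the plants. With the number as a replicate block, chosen after seeing the data, MIR166k was −0.37 (FDR = 0.918) and MIR166j −0.23 (FDR = 0.918) in the haploid, and 0.35 (FDR = 0.523) and 0.33 (FDR = 0.976) in the 3S monosomy. The block left 0 and 1 loci called, as did the same plants without it. A median of 32 reads limits single values of MIR166j.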
